A study of Homo sapiens with 58 samples.

Results

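Regulatory elements (REs) of at least 1,000 bp that lay far from annotated promoters were followed in cranial neural crest cells (CNCCs) while the level of the transcription factor SOX9 was lowered. An RE was included when its end minus its start was 1,000 bp or more and its midpoint lay more than 5,000 bp from every transcript start of GENCODE release 44 on the hg38 build. These wide distal REs numbered 1,922 of 151,457 REs, or 1.27%, and 2.14% of the 89,668 distal REs. Another 4,362 REs were as wide but lay nearer to a transcript start. The REs set beside them were the 77,292 distal REs of 501 bp, which is the width of 1 called summit extended by 250 bp on each side. Wide REs measured 1000 to 2423 bp with a median of 1223 bp.

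Accessibility was measured in 58 samples by ATAC-seq, where the transposase Tn5 cuts accessible DNA and leaves sequencing adapters in it. They were samples of passage 4 (P4) CNCCs made from H9 human embryonic stem cells, an established line. In the SOX9-tagged clones S9CC13 and S9CC47 both copies of SOX9 carry a tag with FKBP12-F36V, mNeonGreen and V5, and the molecule dTAGV-1 directs the tagged protein to an E3 ubiquitin ligase. SOX9-tagged cells in BCh media received 0 (DMSO), 0.5, 1.6, 5, 16 or 500 nM dTAGV-1 for 48 h, with 7 replicates per dose (4 of S9CC13 and 3 of S9CC47, from 6 differentiation batches), and the labels give SOX9 levels of 100, 77.9, 51.7, 25.8, 8.14 and 0.95% at these doses. WT cells from the same H9 line, without the tag, received 0 or 500 nM for 48 h (2 replicates each, R8 and RSh). A separate time course held SOX9-tagged and WT cells after vehicle or after 500 nM for 3 h or 24 h (2 replicates each, R4 and R5). The vehicle samples are recorded at 24 h, and both the 3 h and the 24 h samples were compared with them. All samples descend from 1 stem cell line and each SOX9-tagged line is 1 clone, so replicates are separate differentiations and not separate donors.

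SOX9 is an HMG-box transcription factor that binds the minor groove of DNA at a short core, written here as ACAAAG or ACAATG, and 2 molecules can bind together where a pair of such cores faces each other. In the neural crest it acts in the formation and survival of crest cells, and later it directs crest-derived mesenchyme into cartilage. Distal REs are mostly enhancers, and a wide RE in such a catalogue arises where the summits of neighbouring accessible sites lie so close that their extended intervals merge.

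Library totals over the REs ran from 22.91 to 81.04 M reads. The median wide RE held 202.5 to 846.0 reads per library, and a single-summit RE 34 to 133. At 0 nM, the most accessible promoter RE of each of the 9 CNCC markers (such as TFAP2A, TWIST1 and ALX1) reached 35.8 to 121.0 CPM per kb (CPM, counts scaled to the library size, divided by the RE length in kilobases). The median over all promoter REs of coding genes was 14.5, which is not a highest value per gene. For the other markers the most accessible promoter RE is given as well. Of the markers of pluripotent cells, NANOG had no promoter RE, POU5F1 and DPPA4 reached 2.56 and 7.85 CPM per kb, and LIN28B reached 38.6. Markers of neural progenitors (PAX6, SOX1, SOX2, OTX2) reached 4.27 to 23.6, the endoderm marker SOX17 reached 6.16, and FOXA2 had no promoter RE. The library of S9CC47_R6 at 5 nM stood apart: 2.436% of its reads lay in wide distal REs, against 2.756 to 3.112% in the other 5 libraries of that differentiation, and results at 5 nM are given with and without it. A lower count in an RE cannot tell fewer cells with open chromatin from less opening per cell.

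The sequences shown are stretches of named wide REs with their SOX cores, so that the number and spacing of cores can be compared between REs that lost and gained accessibility. Coordinates are hg38, the letters are the forward strand of the reference, and capitals mark SOX cores on either strand (CTTTGT and CATTGT are the cores read from the other strand). The RE with the largest loss, numbered W1, lies in an intron of MGLL at chr3:127814048-127815384 and holds 8 cores. Shown is its window at chr3:127814461-127814610, with 4 of them.
W1 (MGLL): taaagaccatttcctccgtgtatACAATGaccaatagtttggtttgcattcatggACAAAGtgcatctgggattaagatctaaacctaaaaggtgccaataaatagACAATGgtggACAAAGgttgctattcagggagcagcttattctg
The second largest loss, W2, lies between genes at chr13:101423863-101425381 and holds 4 cores. Its window at chr13:101424525-101424674 holds 2.
W2 (NALCN): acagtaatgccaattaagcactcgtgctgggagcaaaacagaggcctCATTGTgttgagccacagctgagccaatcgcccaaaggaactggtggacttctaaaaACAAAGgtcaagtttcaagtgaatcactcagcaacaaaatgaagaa
W3 at chr6:15952668-15953923 is shown because it lost nearly as much with 1 core in the whole RE, in the window chr6:15953175-15953324.
W3 (MYLIP): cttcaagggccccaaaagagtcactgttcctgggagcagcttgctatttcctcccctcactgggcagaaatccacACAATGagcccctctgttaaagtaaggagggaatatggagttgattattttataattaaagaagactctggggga
For contrast, W13 at chr18:1017626-1018848 gained accessibility and also holds 4 cores, 2 of them in chr18:1017637-1017786.
W13 (ADCYAP1): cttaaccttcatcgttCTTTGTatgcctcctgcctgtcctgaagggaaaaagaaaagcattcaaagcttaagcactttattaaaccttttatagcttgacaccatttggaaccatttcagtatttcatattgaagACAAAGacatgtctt

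A pair of facing cores (a forward core, a gap of 3 to 5 bases and a core on the other strand) was found in 6 wide REs, or 0.312%, against 0.217% of all REs. Wide REs hold more bases, and per kb the pair was less frequent in them. It occurred at 0.00248 per kb in wide REs, 0.00371 in all REs and 0.00462 in single-summit distal REs. All 6 are shown, each with 10 bases on either side and named by the nearest protein-coding transcript start.
SYT14, chr1:209870604-209870638: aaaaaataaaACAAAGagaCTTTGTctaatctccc
ST6GALNAC3 (W6), chr1:76125570-76125605: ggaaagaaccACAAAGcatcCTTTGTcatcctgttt
AK5, chr1:77395192-77395226: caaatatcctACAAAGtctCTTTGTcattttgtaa
COL24A1, chr1:86197297-86197332: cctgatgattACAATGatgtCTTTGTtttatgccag
EPHA3, chr3:89216985-89217020: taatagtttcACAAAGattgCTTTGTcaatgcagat
CXXC5, chr5:139733933-139733968: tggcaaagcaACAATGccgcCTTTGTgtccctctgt
Of these 6 REs, 5 were lower both at 500 nM after 48 h and at 3 h, and the RE near EPHA3 passed in neither comparison. Both comparisons were lower in 244 of 1,922 wide REs and in 9133 of 151,457 REs. The same held for 134 of the 179 single-summit REs with a facing pair, so it was not particular to wide REs. The RE near SYT14, a gene of the synaptotagmin family, held 19.4, 34.8 and 42.7 CPM (lowest, median and highest of 7) at 0 nM and 5.15, 8.73 and 11.4 CPM at 500 nM. The RE near CXXC5, which encodes a zinc-finger protein that binds unmethylated CpG, held 16.6, 23.9 and 34.9 CPM at 0 nM and 5.68, 7.29 and 8.77 CPM at 500 nM. In neither RE did the 0 and 500 nM samples overlap, and the log2 fold changes were -1.86 ± 0.077 (SE, adjusted p = 2.6e-15) near SYT14 and -1.74 ± 0.081 (adjusted p = 2.6e-14) near CXXC5. The RE near COL24A1, a fibrillar collagen gene, changed by -1.02 ± 0.14 (adjusted p = 3.5e-06) with overlapping groups, and the RE near AK5, an adenylate kinase gene, by -0.32 ± 0.08 at 48 h (adjusted p = 0.0041) and -0.86 at 3 h (adjusted p = 4.2e-06). Near EPHA3, an ephrin receptor gene, the samples held 2.05 to 3.45 CPM at 0 nM and 1.64 to 3.95 CPM at 500 nM, a log2 fold change of 0.11 ± 0.15 (adjusted p = 0.66).

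Wide distal REs were more accessible than single-summit ones over the same length of DNA. At 0 nM the median wide RE held 7.98 CPM per kb (10th to 90th percentile 3.07 to 27.2), against 3.13 CPM per kb (1.61 to 13) for single-summit REs. Not corrected for length, the medians were 10.0 and 1.57 CPM, and the median SD of log2 CPM over the 7 replicates at 0 nM was 0.288 for wide REs and 0.37 for single-summit REs. Accessibility per kb rose with width up to 1999 bp: it was 5.86 CPM per kb in distal REs of 750 to 999 bp, 7.21 at 1000 to 1249 bp, 8.95 at 1250 to 1498 bp and 10.0 at 1500 to 1999 bp. The 12 REs of 2000 bp or more held 6.62 CPM per kb. Wide REs took 2.94 ± 0.283% of the reads at 0 nM and 2.76 ± 0.213% at 500 nM (mean ± SD, n = 7), and the share was lower at 500 nM in 6 of 7 replicates. Single-summit REs took 23.9 ± 2.34% and 23.3 ± 1.84%, and their share was lower in 5 of 7 replicates.

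In position and base composition, wide distal REs resembled the single-summit class except in CpG-rich DNA. The median distance to a transcript start was 18536 bp, against 19644 bp, and the median GC content was 45.3% in both. Introns of coding genes held 38.7% of wide REs and 40.4% of single-summit REs, and 40.3% and 41.1% lay between genes. A density of at least 50 CpG per kb, near that of CpG islands, was found in 121 wide REs (6.3%) and in 1.51% of single-summit REs. Overlap with a coding exon was found for 87 wide REs (4.53%) and for 2.45% of single-summit REs.

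Depletion of SOX9 to near absence (500 nM for 48 h) lowered 494 wide distal REs and raised 293 at an adjusted p under 0.05 (edgeR's quasi-likelihood test). That was 25.7% lower and 15.2% higher, against 13.9% and 10.2% of all REs and 14.4% and 11.6% of single-summit distal REs. The median log2 fold change of wide REs called lower was 0.5 below 0 nM, or 1.42-fold, and of those called higher 0.41 above it. These medians are not set against the 0.72 and 0.59 of single-summit REs as a difference in size, since a smaller SE in wide REs (median 0.0972 against 0.164) lets smaller changes pass. Over all REs of each class, called or not, 4.73% of wide and 4.61% of single-summit REs lost at least 1 log2 unit, 0.208% and 0.89% gained as much, and the median absolute change was 0.195 and 0.23 log2 units. Over all 1,922 wide REs the median log2 fold change was -0.03, against 0.03 in the single-summit class and 0.02 in all REs. All 7 samples at 500 nM lay below all 7 at 0 nM in 138 wide REs (7.18%, against 3.36% of all REs), and all lay above in 26 (1.35%, against 0.677%). Without a term for the differentiation batch, 343 wide REs passed in place of 787.

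**Figure D1:**
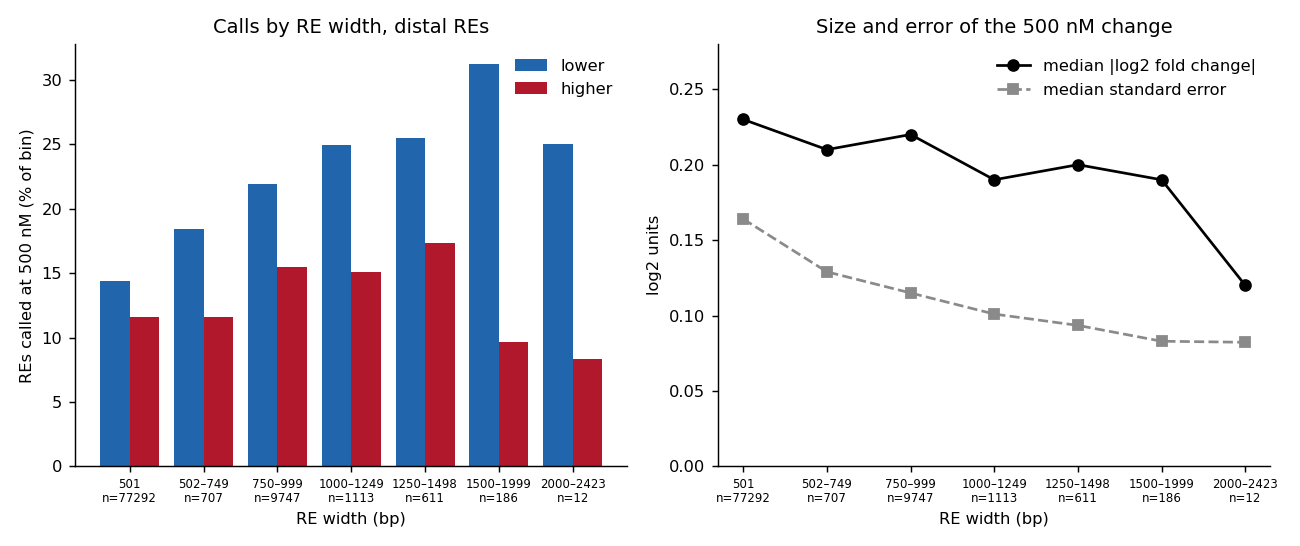
Left, the percentage of distal REs in each width bin that were lower (blue) or higher (red) at 500 nM dTAGV-1 for 48 h; right, the median size of the log2 fold change (black) and the median standard error (grey) in the same bins. The share called lower was 14.4% at 501 bp, 24.9% at 1000 to 1249 bp and 31.2% at 1500 to 1999 bp, while the standard error fell from 0.164 to 0.083.

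The share of REs called lower rose with width, and the size of the change did not. Of distal REs of 750 to 999 bp, 21.9% were lower, followed by 24.9% at 1000 to 1249 bp (n = 1113), 25.5% at 1250 to 1498 bp (n = 611) and 31.2% at 1500 to 1999 bp (n = 186). The share that was higher ran from 15.5% to 15.1%, 17.3% and 9.68% over the same bins, and of the 12 REs of 2000 bp or more 3 were lower and 1 was higher. The median absolute log2 fold change was 0.23 at 501 bp and 0.19 to 0.22 in the bins from 750 to 1999 bp, while the median SE of the fold change went down from 0.164 at 501 bp to 0.083.

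At a like number of reads, similar shares of wide and single-summit REs were called lower above 200 reads. REs matched in this way were not alike in accessibility per kb. With 400 to 800 reads its median at 0 nM was 10.8 CPM per kb in wide and 25.8 in single-summit REs. With a mean of 400 to 800 reads per library, 28.5% of 505 wide REs were lower and 15.0% higher, against 29.5% and 13.3% of 2930 single-summit REs. With 800 to 1600 reads the shares were 34.9% and 13.4% in wide REs and 36.3% and 12.6% in single-summit REs, and above 1600 reads 36.0% of both classes were lower. With 200 to 400 reads, 22.8% of wide REs were lower against 23.8%, and 17.9% were higher against 13.4%. With 100 to 200 reads, 14.2% of 325 wide REs were lower against 18.2% of single-summit REs, and 52 of the 325 were higher against 13.3%. From 200 to 1600 reads the median absolute log2 fold change was 0.19 to 0.21 in wide and 0.19 to 0.2 in single-summit REs. When the count of every RE was thinned to what 501 bp of it would hold, 410 wide REs were lower and 226 higher (21.3% and 11.8%), against 14% and 12.6% of single-summit REs. Thinned counts still held the higher accessibility per kb of the wide REs.

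**Figure D2:**
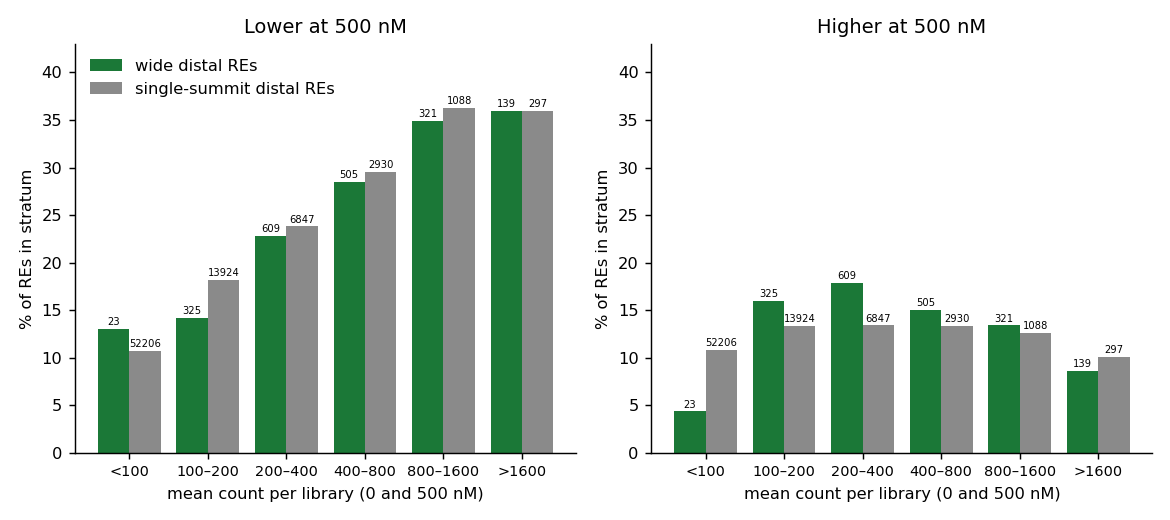
Percentage of wide (green) and single-summit (grey) distal REs called lower (left) or higher (right) at 500 nM, by mean read count per library over the 0 and 500 nM samples, with the number of REs above each bar. Above 200 reads the share called lower in wide REs came within 2 percentage points of that in single-summit REs, and with 100 to 200 reads it was 14.2% against 18.2%.

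The wide REs with the largest losses were found near genes of varied function, and named REs are numbered W1 to W30 and carry the nearest protein-coding gene, which need not be the gene they act on. W1 lies 7427 bp from a transcript start of MGLL, which encodes the lipase of the endocannabinoid 2-arachidonoylglycerol. It held 8.72, 15.9 and 28.7 CPM (lowest, median and highest of 7) at 0 nM and 1.32, 2.75 and 3.44 CPM at 500 nM. The groups did not overlap, and the fall was 7.16-fold (log2 fold change -2.84 ± 0.17, adjusted p = 2.1e-12). W2 lies 8114 bp from NALCN, a sodium leak channel gene, and held 4.1, 7.01 and 9.68 CPM at 0 nM and 0.569, 1.0 and 2.35 CPM at 500 nM. All samples at 500 nM were again below all samples at 0 nM, with a 6.11-fold fall (-2.61 ± 0.17, adjusted p = 1.3e-11). W3, between genes and 175790 bp from MYLIP, which encodes an E3 ligase for the LDL receptor, held 23.3, 36.7 and 43.2 CPM at 0 nM and 4.82, 5.92 and 7.79 CPM at 500 nM, a 5.57-fold fall (-2.48 ± 0.12, adjusted p = 2.9e-14).

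Of the 10 largest losses, W6 was the most accessible at 0 nM and the only 1 with a facing pair of cores. It lies at chr1:76124966-76126182 in an intron of ST6GALNAC3, a sialyltransferase gene, and held 51.3, 61.9 and 68.6 CPM at 0 nM and 10.8, 13.5 and 20.8 CPM at 500 nM (-2.09 ± 0.083, adjusted p = 1.4e-15). W8, between genes at chr2:71720537-71721811, 110395 bp from DYSF, a membrane repair gene, holds 6 cores and held 11.4, 15.7 and 18.0 CPM at 0 nM and 3.1, 3.59 and 4.46 CPM at 500 nM (-2.04 ± 0.11, adjusted p = 4.1e-13). Neither RE had a sample at 500 nM as high as its lowest sample at 0 nM. The other 5 of the 10 were W4 (nearest to RBM46, a germ cell RNA-binding protein), W5 (FZD9, a Wnt receptor), W7 (JADE1, a subunit of a histone acetyltransferase complex), W9 (EFR3B, which helps to place a lipid kinase at the membrane) and W10 (DAP, a death-associated protein). Their log2 fold changes ran from -1.97 to -2.12, and their groups did not overlap either. The number of cores in the 10 REs ranged from 1 (W3, W4, W5, W7 and W10) to 8 (W1).

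Gains were smaller than losses, and 4 wide REs gained 1 log2 unit or more against 91 that lost as much. The largest gain was W11 in an intron of FGGY, a carbohydrate kinase gene, at chr1:59351576-59352883. It held 2.65, 3.69 and 6.52 CPM at 0 nM and 5.91, 9.57 and 15.7 CPM at 500 nM, so the groups overlapped, although the change was upward in 7 of 7 replicates (1.24 ± 0.11, adjusted p = 4.4e-09). W13, in an intron of a non-coding gene 110205 bp from ADCYAP1, which encodes the neuropeptide PACAP, held 16.5, 19.8 and 28.5 CPM at 0 nM and 33.4, 44.5 and 57.7 CPM at 500 nM (1.1 ± 0.066, adjusted p = 3.2e-12). W12, in an intron of the ephrin receptor gene EPHB1, held 2.28, 3.57 and 4.2 CPM at 0 nM and 4.84, 7.75 and 10.3 CPM at 500 nM (1.14 ± 0.12, adjusted p = 6.1e-08). In W12 and W13 every sample at 500 nM was above every sample at 0 nM. W14 (1.05), in a UTR of ACVR2B, an activin receptor gene, and nearest to the start of the mitochondrial nuclease gene EXOG, was the fourth RE past 1 log2 unit. W15 (0.96), near MACC1, a regulator of MET expression, and W16 (0.92), in an intron of HS6ST3, which encodes a heparan sulfate sulfotransferase, followed, and W15 had overlapping groups.

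Neither the widest nor the most accessible wide REs were among those that changed most. Among the 3 widest were W17 (2423 bp, nearest to RAN, a nuclear transport GTPase gene) and W19 (2236 bp, in coding exons of the gamma protocadherin cluster). W19 held 58.6, 68.5 and 84.1 CPM at 0 nM and 50.1, 61.3 and 70.3 CPM at 500 nM, which overlapped (-0.21 ± 0.062, adjusted p = 0.014), and this call was lost by DESeq2, by thinning and without S9CC13_R10 or S9CC47_R5, where the value was -0.17 to -0.2. W17 (-0.13 ± 0.087, adjusted p = 0.33) did not pass. The 3 most accessible per kb were W20 (109.0 CPM per kb, nearest to PIAS1, a SUMO ligase gene), W21 (100.0, NUFIP1, an RNA-binding protein gene) and W22 (90.7, in an intron of BOC, a hedgehog co-receptor gene). Their log2 fold changes were -0.1 ± 0.047, 0.01 ± 0.054 and -0.03 ± 0.051, and none passed.

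Below 500 nM, fewer wide REs passed, and each dose was compared with the same 0 nM samples, so the counts are not independent of each other. At 16 nM, with SOX9 at 8.14%, 312 wide REs (16.2%) were lower and 273 (14.2%) higher, against 9.12% and 7.12% of all REs. At 5 nM, with SOX9 at 25.8%, 142 (7.39%) were lower and 38 (1.98%) higher, against 4.24% and 1.08% of all REs. With a replicate block in place of the batch term, 311 passed at 5 nM in place of 180. Without S9CC47_R6, the library that stood apart, 511 passed at 5 nM (242 lower and 269 higher), and without S9CC47_R5 or S9CC47_R8 the count was 116 or 113.

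At the smallest reductions of SOX9, edgeR's quasi-likelihood test called no wide RE. At 1.6 nM, with SOX9 at 51.7%, 0 of 1,922 passed, against 0.0383% of all REs, which were all lower, with 154 wide REs at an unadjusted p under 0.05, 14 called by DESeq2 and 43 called with a replicate block. The count at 1.6 nM was 17 without S9CC13_R6 and 25 without S9CC47_R6. At 0.5 nM, with SOX9 at 77.9%, 0 passed, as in all REs (0.0%), with 63 at an unadjusted p under 0.05 and 0 by DESeq2, and 11 passed without S9CC13_R6.

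Accessibility of the REs called lower at 500 nM came down in steps with the dose. Taking the median over these 494 REs in each replicate, the log2 change from 0 nM was -0.53 ± 0.09 (SD, n = 7) at 500 nM and -0.32 ± 0.09 at 16 nM. At 5, 1.6 and 0.5 nM it was -0.23 ± 0.15, -0.08 ± 0.06 and -0.0 ± 0.07. From the lowest dose to the highest it was below 0 in 4, 6, 7, 7 and 7 of 7 replicates. The REs were chosen by direction at 500 nM against these 0 nM samples, so the count at 500 nM was largely set in advance. Lower doses were set against the same 0 nM samples and are not independent of that choice. As a share of the 500 nM change, the fall reached 14.5 ± 10.7%, 42.5 ± 21.0% and 60.8 ± 7.17% at the doses of 1.6, 5 and 16 nM. Single-summit REs called lower had shares of 15.4 ± 6.68%, 43.9 ± 11.0% and 67.5 ± 16.4%, and the difference at 16 nM, wide minus single-summit, was -6.68 ± 12.6 percentage points and above 0 in 3 of 7 replicates, within the spread between replicates. Without S9CC47_R6, the change of the 494 REs at 5 nM was -0.19 ± 0.08 (n = 6), or 35.3 ± 9.94% of that at 500 nM, against 42.6 ± 11.4% in single-summit REs. At 5 nM the difference, wide minus single-summit, was between -21.3 and -3.21 percentage points in 6 of 7 replicates and 33.3 in S9CC47_R6. For the 293 wide REs called higher, the median changes at the 5 doses in rising order were 0.05 ± 0.04, 0.07 ± 0.05, 0.2 ± 0.1, 0.36 ± 0.1 and 0.42 ± 0.08 (0.23 ± 0.05 at 5 nM without S9CC47_R6), and they were above 0 in 7 of 7 replicates at each dose except 5 nM (6 of 7). These REs were chosen in the same way, against the same 0 nM samples. Over all wide REs the median change at 0.5 nM was 0.02 ± 0.04, above 0 in 5 of 7 replicates.

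**Figure D3:**
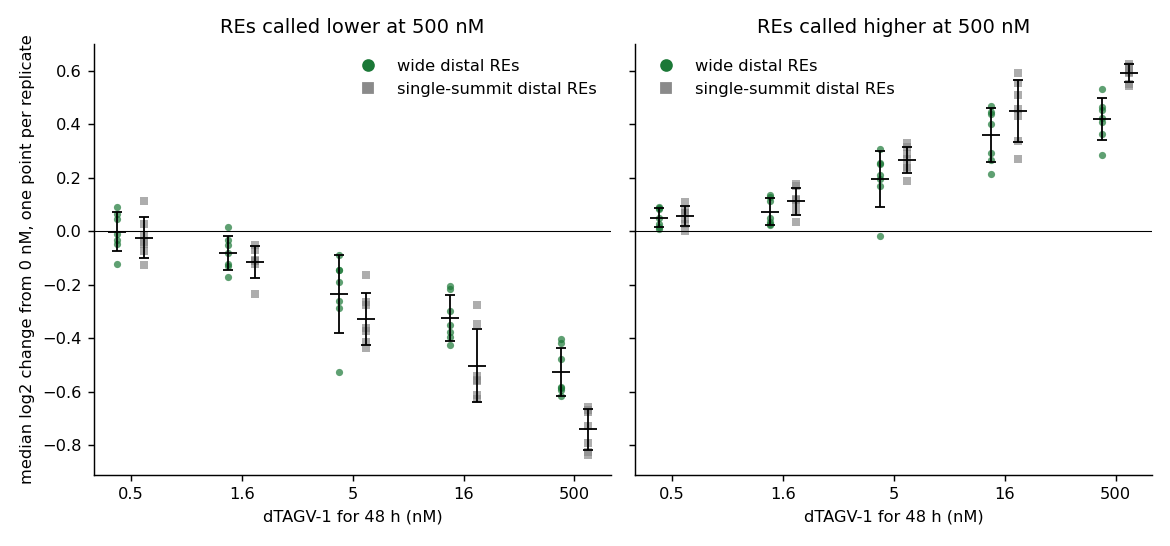
Median log2 change from 0 nM over the REs called lower (left) or higher (right) at 500 nM, 1 point per replicate (n = 7), against the dTAGV-1 dose; the long bar is the mean and the error bar the SD. Wide REs (green) lie nearer to 0 than single-summit REs (grey) at 500 nM, where the call that chose them admits smaller changes in wide REs, and the lowest green point at 5 nM (-0.53) and the green point below 0 at 5 nM on the right (-0.02) are S9CC47_R6.

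Single wide REs differed in how much of their loss was reached at 5 nM. Over the 494 called lower, the log2 change at 5 nM was 39.8% of that at 500 nM (median, with 26.9% and 51.0% as the quartiles), and over single-summit REs called lower it was 40.0%. With S9CC47_R6 left out of the 5 nM fit these medians were 31.3% and 37.9%, and for W1, W6 and W28, described next, the share became 50.0%, 19.0% and 87.6%. W6 fell late: its medians were 61.9, 58.5, 46.9, 26.6 and 13.5 CPM at 0, 1.6, 5, 16 and 500 nM, and 21.0% of the log2 change was reached at 5 nM. W1 had medians of 15.9, 11.8, 5.79, 3.1 and 2.75 CPM at these doses and had reached 53.6% at 5 nM. W28, in MATN4, had medians of 26.9, 23.2, 16.3, 13.9 and 14.3 CPM and reached 77.3% at 5 nM and 114.0% at 16 nM. At 5 nM, 5 wide REs (0.26%) had lost 1 log2 unit or more, against 1.28% of single-summit distal REs and 1.04% of all REs. The 5 wide REs, named after their values were seen, were W1 (-1.52), W9 (-1.21), W10 (-1.15) and REs near FNBP1L (-1.11), which encodes a regulator of actin at the membrane, and GRID1 (-1.01), a glutamate receptor family gene.

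**Figure D4:**
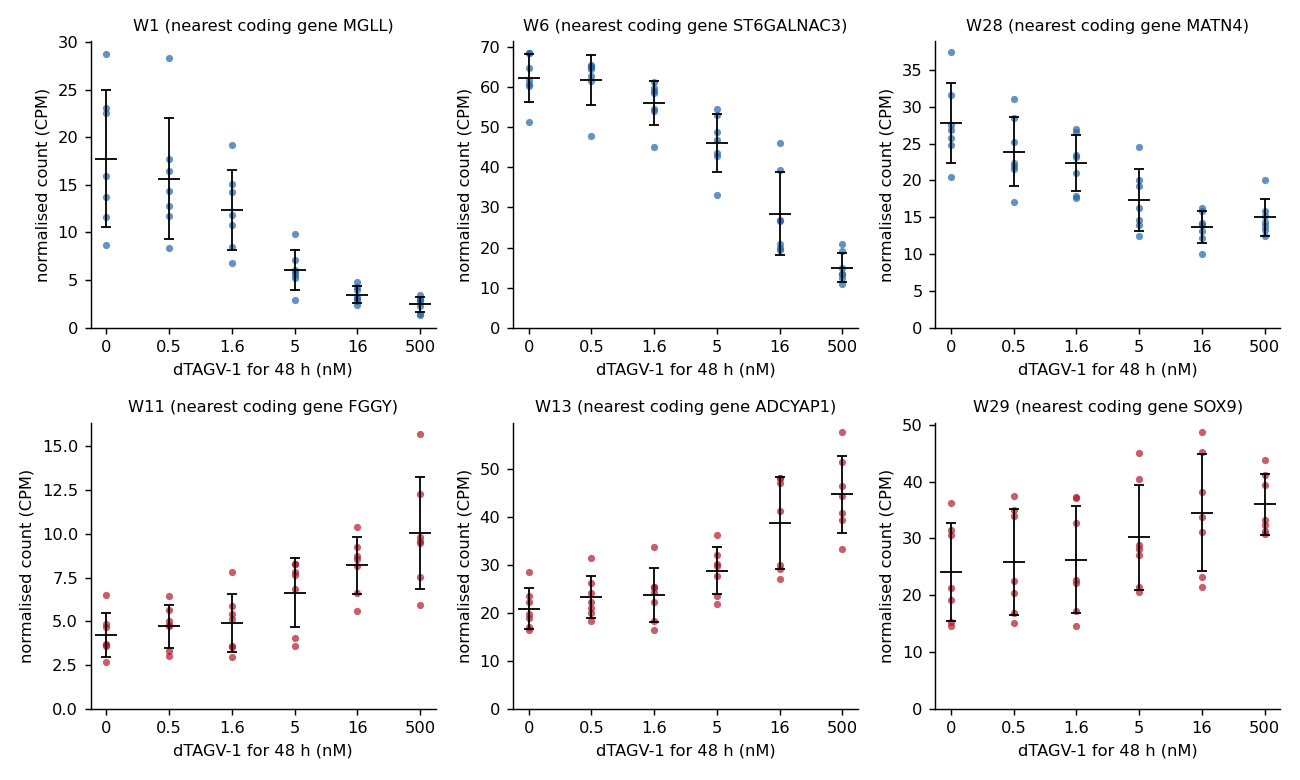
Normalised count (CPM) of 6 wide REs against the dTAGV-1 dose for 48 h, 1 point per replicate (n = 7), with mean (long bar) and SD. W6 was still at a median of 46.9 CPM at 5 nM, W1 had fallen to 5.79 CPM, and W11, W13 and W29 rose with dose.

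Within 3 h of 500 nM dTAGV-1, 318 wide REs (16.5%) were lower and 37 (1.93%) higher, against 7.43% and 0.912% of all REs and 8.34% and 0.815% of single-summit distal REs. At 24 h, 375 (19.5%) were lower and 117 (6.09%) higher, against 9.93% and 4.7% of all REs. Leaving out a differentiation left 1 sample per arm, assumed to vary like the others: the count was 115 without R4 and 200 without R5 at 3 h, against 355, and 166 and 294 at 24 h, against 492. Without the term for the differentiation, 0 wide REs passed at 3 h by edgeR's quasi-likelihood test, with 181 at an unadjusted p under 0.05, and with the term DESeq2 called 246. Thinned to 501 bp, 12.2% of wide REs were lower at 3 h, against 8.45% of single-summit REs.

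The largest losses at 3 h were those of W1, W7, W2, W23 and W4. W1 held 41.5 CPM (R4) and 21.2 CPM (R5) with vehicle, 8.37 and 4.77 CPM at 3 h and 4.5 and 3.34 CPM at 24 h (log2 fold change at 3 h -2.3 ± 0.12, adjusted p = 4.0e-10). In WT cells W1 held 46.3 and 33.2 CPM with vehicle and 49.8 and 33.6 CPM at 3 h. In SOX9-tagged cells both samples at 3 h were below both vehicle samples, and in WT cells the groups overlapped. W23, in an intron of FGF14, a gene for a regulator of sodium channels, held 12.5 and 20.0 CPM with vehicle, 2.22 and 5.77 CPM at 3 h and 2.7 and 7.04 CPM at 24 h (-2.17 ± 0.16, adjusted p = 2.5e-08). W23 thus fell further at 3 h than after 48 h in the dose series (-1.46 ± 0.13), where its groups overlapped. W2 (-2.22), W4 (-2.0) and W7 (-2.21) also had both treated samples below both vehicle samples.

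The gains at 3 h were few and depended on the pair of differentiations: 37 passed with both, 0 without R4, 3 without R5 and 19 by DESeq2. Of the 37, the largest were W24, 531647 bp from the cell adhesion gene CADM1, and W11. W24 held 11.3 and 5.14 CPM with vehicle and 28.4 and 6.93 CPM at 3 h, so most of the rise was in R4, and the value was 0.88 ± 0.19 (adjusted p = 0.0045) with both and 0.37, not past the threshold, without R4. By 24 h it held 9.3 and 5.73 CPM, and in the dose series it was lower at 500 nM (-0.6 ± 0.11, adjusted p = 1.9e-04). W11 held 3.34 and 4.71 CPM with vehicle, 5.57 and 8.09 CPM at 3 h and 7.13 and 9.92 CPM at 24 h (0.7 ± 0.14 at 3 h, adjusted p = 0.0023), and this call at 3 h was lost without either differentiation and after thinning.

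**Figure D5:**
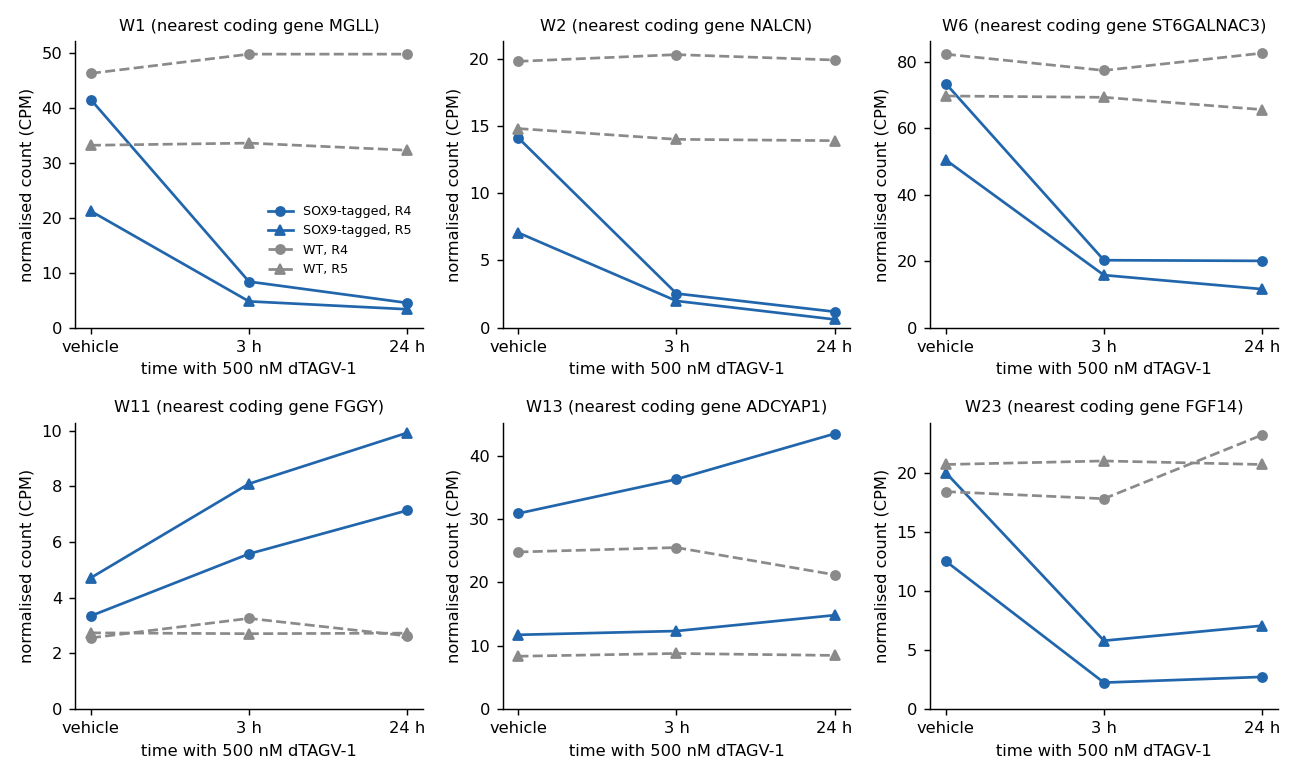
Normalised count (CPM) of 6 wide REs with vehicle and after 3 h and 24 h of 500 nM dTAGV-1 in SOX9-tagged (blue) and WT (grey) cells, 1 line per differentiation (R4 circles, R5 triangles). W1, W2, W6 and W23 had dropped at 3 h in both SOX9-tagged differentiations, with no such drop in WT cells.

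The time course and the 48 h series share no samples, but both hold a differentiation numbered R5, and their calls overlapped. Of the 318 wide REs lower at 3 h, 244 were also lower at 500 nM after 48 h, which is 76.7% of the former and 49.4% of the 494, and in single-summit REs the shares were 80.1% and 46.5%. With S9CC47_R5 left out of the 48 h series, 232 of the 318 were lower at 48 h, or 73.0% of them and 52.7% of 440. Of the 375 lower at 24 h, 326 (86.9%) were lower at 48 h, against 82.8% in single-summit REs and 84.4% in all REs. Across the 1,922 REs the log2 fold changes at 3 h and at 48 h had a Pearson r of 0.706 and a Spearman rho of 0.451 (single-summit REs, 0.664 and 0.319), as a description over REs that share libraries. Of 117 higher at 24 h, 88 (75.2%) were higher at 48 h, against 73.7% in single-summit REs and 56.7% in all REs. Of the 37 higher at 3 h, 11 (29.7%) were, against 18.9% and 18.0%. The direction turned, from lower at 3 h to higher at 48 h, in 3 wide REs, or 0.943% of the 318. The share was 0.962% in single-summit REs and 0.978% in all REs, so such turns were not particular to wide REs. The 3 wide REs, named after their values were seen, lay near PCSK2 (-0.45 and 0.4), RAD51AP2 (-0.45 and 0.23) and TMEM64 (-0.47 and 0.29).

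The 244 REs lower at both times responded to SOX9 dose differently from the 250 that were lower at 48 h but not called at 3 h. At 16 nM the former had reached 71.1 ± 6.69% of their 500 nM change and the latter 51.7 ± 9.87% (mean ± SD of replicate medians, n = 7). The difference was 19.4 ± 7.91 percentage points, between 10.4 and 32.7, and above 0 in 7 of 7 replicates. At 5 nM the difference was above 0 in 5 of 7 replicates and ran from -14.1 to 28.7 percentage points (16.4 ± 10.8 without S9CC47_R6, n = 6). The 244 REs also held more accessibility per kb at 0 nM, 13.3 against 10.2 CPM per kb, and less GC, 44.7% against 49.8%. Single-summit REs split in the same way reached 79.0 ± 15.9% and 55.2 ± 17.5% at 16 nM. At 5 nM they reached 50.8 ± 7.63% and 32.4 ± 14.2%. The contrast in dose response was thus not particular to wide REs. The GC of these single-summit groups was 44.5% and 49.3%, and their accessibility 5.84 and 5.97 CPM per kb.

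Few wide REs passed after dTAGV-1 in WT cells, where SOX9 carries no tag and each group has 2 replicates. After 48 h at 500 nM, 9 wide REs passed (4 lower and 5 higher, 0.468%), against 0.303% of all REs. All 9 were lost by DESeq2 (44 at an unadjusted p under 0.05) and by edgeR without either replicate, in fits that took the spread from the SOX9-tagged samples at 0 and 500 nM because 1 WT sample per arm gives none (6 without R8 and 9 without RSh at an unadjusted p under 0.05). One was W23 (0.47 ± 0.099, adjusted p = 0.0041), which rose in WT cells from 6.11 and 13.7 CPM to 10.2 and 16.4 CPM while it fell in SOX9-tagged cells. At 3 h and at 24 h in WT cells, edgeR's quasi-likelihood test called 0 wide REs, as in all REs (0.0% and 0.0%), with 22 and 38 at an unadjusted p under 0.05 and 0 called by DESeq2. Over the 494 REs lower at 500 nM, the median change in the 2 replicates was -0.37 and -0.24 at 3 h in SOX9-tagged cells and 0.03 and 0.02 in WT cells, and at 24 h it was -0.57 and -0.35 against -0.03 and -0.09.

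The difference between genotypes itself was tested as an interaction over the 12 time-course samples. It passed in 190 wide REs (9.89%) as a larger fall in SOX9-tagged cells at 3 h, against 5.13% of all REs, and in 3 as a larger rise, against 0.072%. These 3, named after their values were seen, were REs near ZNF423 (0.61), RBM5 (0.56) and RCHY1 (0.48). At 24 h, 228 passed below 0 and 15 above, against 6.28% and 0.45% of all REs. W1 (-2.38 ± 0.17), W7 (-2.28 ± 0.16), W2 (-2.22 ± 0.21), W23 (-2.18 ± 0.22) and W4 (-2.11 ± 0.18) all passed at 3 h with adjusted p between 2.2e-09 and 4.7e-07. For W11 the interaction was 0.51 ± 0.22 at 3 h (adjusted p = 0.32) and 0.98 ± 0.22 at 24 h (adjusted p = 0.0057).

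SOX cores were more frequent in the wide REs that fell early. A core was found in 80.2% of wide REs, at 1.41 per kb, against 50.9% and 1.45 per kb in single-summit REs and 49.6% of all REs. Per kb, the 244 wide REs lower at 3 h and 48 h held 1.94 cores (92.2% with at least 1), the 250 lower at 48 h alone 1.28, the 293 higher 1.39 and those not called 1.33. The contrast was also found in single-summit REs, with 2.54 cores per kb in those lower at both times and 1.42 at 48 h alone. With 0, 1, 2, 3 and at least 4 cores, 7.35%, 12.8%, 17.7%, 20.7% and 33.0% of wide REs were lower at 3 h, in bins of 381, 545, 475, 294 and 227 REs whose median width was 1204 to 1261 bp. For loss at 500 nM after 48 h the shares were 19.2%, 24.4%, 26.7%, 27.2% and 35.7%. A core match is a description of the letters in an RE, and the 73 REs without a core that were lower at 48 h show nothing of whether SOX9 was bound there.

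Motifs of other factor families were compared between wide REs that fell and rose, or between those lower at both times and at 48 h alone. All motifs were searched on both strands, a palindrome counted once, and motifs were allowed to overlap. The AP-1 motif TGANTCA occurred at 0.438 per kb in wide REs called higher and 0.294 per kb in those called lower (16.7% of all REs and 35.2% of wide REs held it). With 0, 1 and 2 AP-1 matches, 13.3%, 17.1% and 27.1% of wide REs were higher at 500 nM. The homeodomain motif TAATTA occurred at 0.553 per kb in the higher and 0.379 per kb in the lower REs (14.7% of all and 37.5% of wide REs). The TFAP2 motif, GCC and GGC separated by 3 bases, occurred at 0.309 per kb in the REs lower at 3 h and 48 h and at 0.654 per kb in those lower at 48 h alone (27.1% of all and 40.4% of wide REs). The E-box CAGATG bound by TWIST1 occurred at 1.15 and 1.29 per kb in these groups (44.3% of all and 72.5% of wide REs), the nuclear receptor motif AGGTCA at 0.801 and 0.931 (36.2% and 62.8%), and the TEAD motif GGAATG at 0.755 and 0.676 (33.3% and 58.5%). GC content differed between these groups in the same direction as the GC-rich TFAP2 motif, and its part in that difference was not tested. Median GC was 42.8% in wide REs called higher and 46.6% in those called lower. The part of GC in the differences of TAATTA and of the SOX core, both AT-rich, was not tested either. In single-summit REs called higher and lower, the AP-1 motif occurred at 0.64 and 0.305 per kb and TAATTA at 0.545 and 0.292. The TFAP2 motif occurred at 0.382 per kb in single-summit REs lower at 3 h and 48 h and at 0.56 in those lower at 48 h alone. These contrasts were thus not particular to wide REs. Wide REs hold more bases, which raises their share of REs with a match.

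The wide REs nearest to neural crest transcription factors changed in both directions. Of 33 genes listed, 14 were nearest to a wide RE, with 19 such REs, and 6 of these were lower and 3 higher at 500 nM (31.6% and 15.8%, against 25.7% and 15.2% of all wide REs and 13.9% and 10.2% of all REs), with a median log2 fold change of -0.06 (all REs, 0.02). W25, in a UTR of ETS1, an ETS-family factor of cranial crest, held 12.3, 13.3 and 19.9 CPM at 0 nM and 4.98, 6.94 and 8.91 CPM at 500 nM, without overlap (-1.02 ± 0.11, adjusted p = 1.8e-07), and it fell at 3 h as well (-1.15 ± 0.14). W26, in an intron of the LIM-homeodomain gene LMX1B, held 21.7, 27.8 and 33.2 CPM at 0 nM and 12.5, 17.8 and 23.4 CPM at 500 nM (-0.68 ± 0.094, adjusted p = 4.8e-06). W26 overlapped between groups, and at 3 h its change was -0.26 ± 0.1 (adjusted p = 0.15). Of 4 wide REs nearest to NR2F2, a nuclear receptor gene of the crest, W27 was lower (-0.59 ± 0.11) and the one 138019 bp away was higher (0.26 ± 0.084, adjusted p = 0.025). In an intron of PAX7 an RE was lower at 48 h (-0.51 ± 0.066) and higher at 3 h (0.37, adjusted p = 0.0075). REs near PAX3 (-0.38) and FOXC1 (-0.3) were lower too, and one near TFAP2B (0.37) was higher.

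Near the chondrogenic genes listed, which include SOX9 itself and other regulators, there were 10 wide REs at 7 of 29 genes. Of these REs, 2 were lower and 2 higher at 500 nM (20.0% each, against 25.7% and 15.2% of all wide REs), with a median of 0.13. W28 overlaps a coding exon of MATN4, a cartilage matrix gene, and held 20.5, 26.9 and 37.5 CPM at 0 nM and 12.5, 14.3 and 20.1 CPM at 500 nM (-0.89 ± 0.071, adjusted p = 5.9e-10). These groups did not overlap, and W28 also fell at 3 h (-0.92 ± 0.099, adjusted p = 1.9e-06). The other lower RE was in an intron of RUNX1, a Runt-family factor gene (-0.38 ± 0.086, adjusted p = 0.0017). Both higher REs had SOX9 itself as nearest gene, at 275469 bp (W29) and 411198 bp (W30). W29 held 14.5, 21.2 and 36.2 CPM at 0 nM and 30.8, 33.2 and 43.9 CPM at 500 nM, with overlap and a rise in 7 of 7 replicates (0.64 ± 0.09, adjusted p = 6.4e-06), and W30 held 1.47 to 2.87 CPM and 2.53 to 4.3 CPM (0.61 ± 0.13, adjusted p = 0.0011). Of 3 wide REs in introns of SOX5, a partner of SOX9 in cartilage, 2 were lower at 3 h (-0.31 and -0.82) and none passed at 48 h. None of the 14 glial and melanocyte genes listed was nearest to a wide RE.

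Wide REs were spread over 1,552 nearest genes, and 68 genes had 3 or more. EFNA5, an ephrin gene, had the most with 7, of which 2 were lower at 500 nM (-0.36 and -0.58). ZMIZ1 and ZNF423, which encode a transcriptional coregulator and a zinc-finger factor, had 6 each. At ZMIZ1 1 was lower (-0.63) and at ZNF423 2 were lower (-0.6 and -0.24) and 1 higher (0.28). NCAM1, the neural cell adhesion molecule gene, had 5, as did RERE, TENM4 and ZNF608, and 4 of its 5 were lower. The RE in an NCAM1 intron at chr11:113211586-113212704 went from a mean of 23.5 CPM to 10.0 CPM (-1.21 ± 0.085, adjusted p = 5.2e-11), and the other 3 changed by -0.96, -0.47 and -0.38. Of 70 genes with at least 2 called wide REs, 28 had losses alone, 12 had gains alone and 30 had both. Among all called wide REs 62.8% were lower, and whether REs of 1 gene shared a direction beyond this share was not tested.

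The RE next to a lower wide RE, of any kind and at a median gap of 5039 bp, was lower in 30.6% and higher in 5.87% of cases, against 31.2% and 5.85% for single-summit REs that were lower. Next to a higher wide RE, 8.19% were lower and 20.1% higher, and next to one that was not called 15.4% and 10.6%, while 13.9% and 10.2% of all REs were lower and higher. CpG-rich wide REs (at least 50 CpG per kb) were called less: 14 of 121 were lower and 7 higher (11.6% and 5.79%). With 20 to 50 CpG per kb 28.5% were lower and 10.3% higher. With under 20 CpG per kb it was 389 and 253 of 1482 (26.2% and 17.1%). Of single-summit REs with at least 50 CpG per kb, 4.71% were lower and 5.4% higher, against 14.4% and 12.4% with under 20. Fewer calls in CpG-rich REs were thus not particular to wide REs.

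At the borders of the definition, the 93 REs of 1000 to 1019 bp held a median of 7.0 CPM per kb with 18 lower and 9 higher at 500 nM, and the 511 distal REs of 980 to 999 bp held 6.47 CPM per kb with 108 lower and 94 higher. The 46 wide REs 5006 to 5499 bp from a transcript start held 7.46 CPM per kb with 7 lower and 6 higher, and the 52 at 4515 to 4987 bp held 8.15 CPM per kb with 12 lower and 5 higher.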

How the data were processed

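ATAC-seq was measured in 58 samples. The authors trimmed adapters, aligned read pairs to hg38 (Bowtie2 2.4.1, SAMtools 1.10), removed duplicate, mitochondrial and low-quality alignments, merged MACS2 2.2.7.1 summits across differentiations, extended them by 250 bp and merged them with bedtools, and the deposited values are raw read counts of each sample in that single set of REs. The tool used for counting is not given in the sources used here. Because 1 set was counted in all samples, an RE's width does not depend on the treatment, but a wide RE collects more reads and has a smaller error.

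Wide distal REs were chosen by width and distance alone. The members and all lists were chosen with earlier results of these data known. All 151,457 REs entered each fit with no filter: edgeR 4.0.16 (R 4.3.3), TMM scaling, trended dispersion, quasi-likelihood test, differentiation batch as covariate, Benjamini-Hochberg adjustment over all REs and a threshold of 0.05, the pair of doses alone in each dose fit and the time course of a genotype in 1 fit. The interaction of genotype and treatment was fitted to all 12 time-course samples, with each differentiation of each genotype as a block. The code was tested on simulated data. CPM are TMM-scaled, and log2 CPM used a prior count of 2. Depth was 22.91 to 81.04 M reads per library, and the p-values measure the spread between differentiations of 1 stem cell line. No library was a copy of another: over 1653 pairs the smallest reduced chi-square of the counts was 1.88. Same-numbered samples deviated together: their lowest correlation of deviations was 0.534, 0.594, 0.178, 0.752 and 0.741 from 500 to 0.5 nM, so the replicate names pair the samples of the dose series, as the shared clone and differentiation names in the titles do.

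REs were named by rule: the 10 largest losses and 6 largest gains at 500 nM past the threshold and in the same direction in all 7 replicates, the 3 widest, the 3 most accessible per kb, the 4 largest losses past the threshold at 1.6 nM (none passed), the 5 largest losses and 2 largest gains at 3 h, the 4 genes with the most wide REs (ties by alphabet), and for each gene list the 3 wide REs with the largest change. A few REs that these rules name are not reported here. The position of an RE (coding exon, UTR, non-coding exon, intron, intergenic, in that order of priority) is from GENCODE release 44, and sequences are from the hg38 reference. Alternatives were DESeq2 1.42.0, its size factors in edgeR, a mean count of at least 10, a replicate block or no block, thinned counts, other widths, distances and thresholds, other prior counts, and each replicate left out. Leaving S9CC47_R6 out of the 5 nM medians and S9CC47_R5 out of the overlap with the time course was chosen after seeing the data.

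For S9CC13_R14 the concentration labels of the 0 and 0.5 nM samples are the other way round from the titles, and the titles were used. The SOX9-tagged R5 columns of the time course carry the name of clone S9CC47 while the titles give S9CC13, so the differentiation, the treatment and the time decided their sample.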

Additional observations from a re-analysis of the deposited data

Results flagged for a closer look

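The 48 h dose groups of named REs and of class medians, 75 groups of 7 samples in all, were searched for a sample far from the others, which chance alone marks in about 1 group of 20, and 3 had one. In W24, near CADM1, S9CC47_R8 held 9.45 CPM at 500 nM, and the other 6 samples held 2.72 to 5.5 CPM. At 5 nM, S9CC47_R6 had a median log2 change of -0.28 over all wide distal REs, against -0.03 to 0.05 in the other 6 replicates, and of -0.02 over the wide REs called higher at 500 nM, against 0.17 to 0.31. The same library had the smallest share of reads in wide distal REs of its differentiation, 2.436%, and its part in the 5 nM counts is measured by leaving it out (511 in place of 180).

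The effect of dTAGV-1 differed between SOX9-tagged and WT cells, by the interaction test, in 193 wide REs at 3 h and 243 at 24 h. Among named REs, the interaction at 3 h was -2.38 in W1, -2.22 in W2, -2.11 in W4, -2.28 in W7 and -2.18 in W23, with WT log2 fold changes at 3 h of 0.07, -0.02, 0.1, 0.06 and 0.0.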

How the results depend on the processing

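Over the alternatives tried, of the values of named REs 383 at 500 nM and 185 at 3 h kept their direction and their side of the threshold, 7 and 25 kept the direction and lost the call, and 0 reversed. DESeq2 called 770 wide REs at 500 nM, and 755 of the 787 called by edgeR were among them in the same direction. The percentage of wide REs called at 500 nM, 40.9%, was 40.4% for widths of 1500 bp or more, 42% and 38.9% with a larger and a smaller minimum distance to transcript starts and 30.1% at an adjusted p under 0.01.

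The replicate block called 933 at 500 nM and 875 at 16 nM, 311 at 5 nM and 43 at 1.6 nM, and 0 at 0.5 nM (214 at an unadjusted p under 0.05 in edgeR), and it changed no other call by over 1.5 times. With no replicate block and no batch term the counts were 343 at 500 nM, 169 at 16 nM, 46 at 5 nM, 0 at 3 h, 20 at 24 h, 0 in WT at 48 h, and 14 and 34 for the interaction at 3 h and 24 h. DESeq2 called 14 at 1.6 nM and 0 in WT at 48 h (44 at an unadjusted p under 0.05).

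With each replicate left out, the counts were 671 to 848 at 500 nM, 443 to 770 at 16 nM, 113 to 511 at 5 nM, 0 to 25 at 1.6 nM, 0 to 11 at 0.5 nM, 115 to 200 at 3 h and 166 to 294 at 24 h. In WT at 48 h all 9 calls were lost without either replicate (lowest and highest 0). Fewer samples enter these fits; the cause of the higher counts was not tested.

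Depth limits low REs: the median SE at 500 nM was 0.0972 in wide and 0.164 in single-summit REs. Time-course groups hold 2 samples, and WT groups at 48 h also 2, so small effects in them were not detectable.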

Other observations

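Wide distal REs were not spread over the chromosomes in the proportions of single-summit ones throughout: chromosome 1 held 10.5% of wide and 8.43% of single-summit REs, and chromosome 7 held 4.47% and 5.52%. On chromosome 18, 5 of 50 wide REs were lower and 12 higher at 500 nM, and on chromosome 20, 18 of 41 were lower and 5 higher, both chosen after their values were seen, against 25.7% lower and 15.2% higher over all wide REs. All 4 wide REs nearest to FAM9B on the X chromosome were higher at 500 nM, by 0.25 to 0.62 log2 units, a locus chosen after its values were seen.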
